A study of Mus musculus with 10 samples.

Results

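The genes described here are 36 mouse genes of the Wnt pathway, chosen by name: 18 Wnt ligands, 7 secreted antagonists, the 2 co-receptors Lrp5 and Lrp6, 4 genes of the destruction complex and 5 nuclear effectors. Frizzled receptors were not among them. Open chromatin was mapped by ATAC-seq (which cuts accessible DNA with a transposase) in E13.5 mouse cochleae. The protocol describes whole cochlear duct epithelia, freed with dispase and collagenase I and lysed without sorting, while the titles say whole organ. The groups were wildtype (3 libraries) and SoxC double knockout (2 libraries). SoxC is the group of Sox4, Sox11 and Sox12, the labels do not name which of these were deleted, and the design text calls the knockout conditional. The strain Pax2cre SoxC fl/fl, in which Cre is driven by Pax2, is named only on a single-cell library. Sox4 binding was mapped by CUT&RUN with a guinea pig antibody in wildtype cells of a p27kip1-GFP strain, sorted for GFP at the same stage (3 replicates). The titles call these Sox4 libraries ChIP. The single-cell matrices carry no gene names and were not used here, so no expression of these genes was measured. Nothing in the labels says whether replicates came from separate animals, so the p-values measure only the spread between these libraries.

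Wnt proteins are secreted signals that bind Frizzled receptors together with Lrp5 or Lrp6. Binding stops the destruction complex of Axin, Apc and Gsk3b from marking beta-catenin (Ctnnb1) for degradation, and beta-catenin then joins the DNA-binding proteins Tcf7, Lef1, Tcf7l1 and Tcf7l2 at their target genes. Dickkopf proteins (Dkk) act on the co-receptors, while the secreted Frizzled-related proteins (Sfrp) and Wif1 bind the ligands themselves. In the developing cochlea the pathway is known for its part in the growth of the prosensory domain and in hair cell formation. TCF/LEF and Sox proteins both bind DNA through an HMG box.

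Of the 36 genes, 34 (94.4%) were the nearest coding gene, within 100 kb, of at least 1 open region, against 77.6% of the 20665 autosomal coding genes. These 34 genes held 269 of the 76102 regions, each made from 501 bp windows centred on the summits of the 50000 strongest peaks of a library. Wnt1 and Wnt10b had none. The distance limit left out 15 further regions nearest to these genes. The region just inside it lay 95605 bp from Tcf7l2, with ranks of 50504, 34882 and 96253 in wildtype and 40736 and 33496 in knockout lists (1 is the strongest peak of a library). The region just outside lay 108859 bp from Dkk2, with ranks of 12436, 9033 and 4123 in wildtype and 15240 and 13943 in knockout lists.

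**Figure D1:**
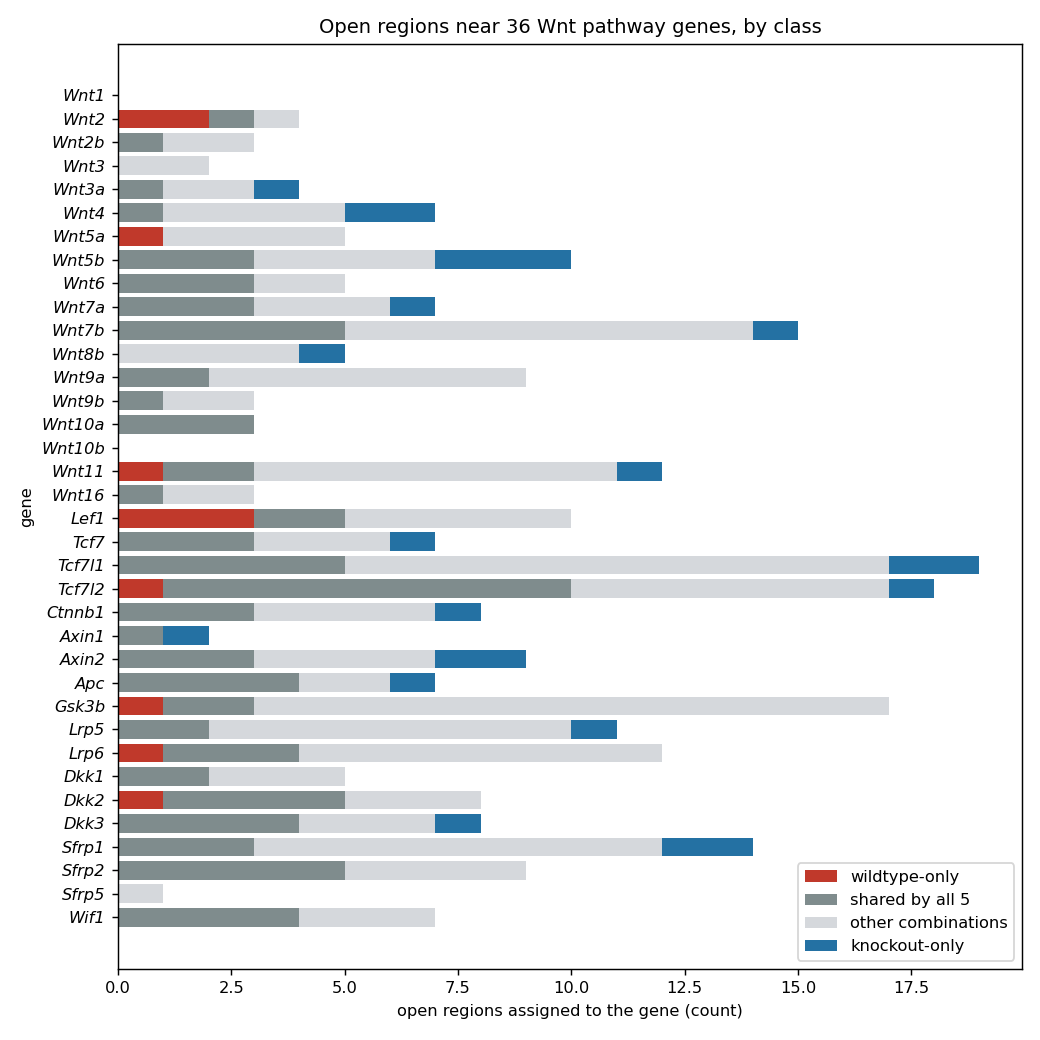
Number of open regions assigned to each of the 36 genes (horizontal axis, count), stacked by class: among the strongest peaks of all 3 wildtype libraries only, of all 5, of both knockout libraries only, or in other combinations. Wnt2 and Lef1 hold 2 and 3 wildtype-only regions, and 17 genes hold a knockout-only region.

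The promoter sequences below lie in regions that differed between the genotypes or held a Sox4 site, and they show which of the letters bound by TCF/LEF and Sox proteins stand there. Each is the stretch before an annotated gene start, outside the gene body, 5′ to 3′ on the gene's strand, from RefSeq on the mm10 build (GRCm38.p6). Capitals mark TCAAAG or its complement CTTTGA, the TCF/LEF core, and CTTTGTT, the complement of the Sox core AACAAAG. They lie at chr3:131110047-131110296 (Lef1, plus strand), chr19:30549497-30549746 (Dkk1, minus strand), chr6:22287977-22288177 (Wnt16, plus strand) and chr16:38088751-38089000 (Gsk3b, plus strand).
Lef1: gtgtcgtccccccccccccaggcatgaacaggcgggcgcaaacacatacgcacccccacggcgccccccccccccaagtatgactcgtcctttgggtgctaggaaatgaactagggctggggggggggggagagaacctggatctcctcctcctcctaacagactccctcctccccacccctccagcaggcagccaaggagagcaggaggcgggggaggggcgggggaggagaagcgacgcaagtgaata
Dkk1: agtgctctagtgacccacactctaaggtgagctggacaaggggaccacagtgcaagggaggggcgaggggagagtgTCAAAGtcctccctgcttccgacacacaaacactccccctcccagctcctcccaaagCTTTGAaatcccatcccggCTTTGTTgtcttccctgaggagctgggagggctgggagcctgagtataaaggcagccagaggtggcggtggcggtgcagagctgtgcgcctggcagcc
Wnt16: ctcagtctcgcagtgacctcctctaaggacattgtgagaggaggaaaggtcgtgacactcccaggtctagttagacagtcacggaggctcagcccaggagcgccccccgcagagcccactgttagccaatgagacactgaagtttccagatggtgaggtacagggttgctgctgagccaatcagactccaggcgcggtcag
Gsk3b: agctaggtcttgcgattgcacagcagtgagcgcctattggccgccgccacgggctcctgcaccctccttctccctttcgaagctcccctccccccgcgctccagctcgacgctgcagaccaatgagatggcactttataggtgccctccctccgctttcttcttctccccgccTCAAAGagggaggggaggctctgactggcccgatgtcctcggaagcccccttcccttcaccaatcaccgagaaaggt
The Dkk1 promoter held 2 TCF/LEF cores, the nearer ending 112 bases before the start, and 1 Sox core. The Gsk3b promoter held 1 TCF/LEF core, ending 72 bases before the start. No searched motif stood in the Lef1 and Wnt16 stretches shown.

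Promoters of 27 of the 36 genes were in the RefSeq table, with 36 starts in all. Over the 250 bases before a start, on both strands, TCAAAG stood in 5 of these 36 promoters (Dkk1, Gsk3b, Lef1, Wnt11 and Wnt5b) and in 13.8% of all 32851 promoters. The Lef1 promoter that held it lies before a start inside the gene and overlapped no region that passed the test described below. The Sox core AACAAAG stood in 2 of the 36 (1 each of Dkk1 and Tcf7l2), against 5.03% of all. Of its variants, AACAATG stood in 1 (Tcf7l2), against 3.29%, while AACAATA stood in 0, against 2.7%. AACAAAG shares its last 5 letters with TCAAAG, but no stretch can match both. The median GC content was 66.6% before these starts and 52.4% before all starts.

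The deposited lists gave between 166874 and 196536 peaks in wildtype and 299829 and 266873 in knockout libraries. At rank 50000 the authors' -log10 p of a peak was 19, 10.5 and 8.75 in wildtype and 104 and 50.5 in knockout libraries. Libraries were therefore compared by rank, and read depth is unknown because the lists hold no counts. The file names of the knockout lists, unlike those of the wildtype, state a p threshold and a cap on peaks, so genotype and processing cannot be told apart. Nor can a change in the share of a cell type be told apart from a change in its chromatin in such bulk tissue. Of 9 epithelial markers, 6 (Epcam, Cdh1, Krt8, Jag1, Sox2 and Eya1) were open at a gene end in all 5 libraries and none was closed in all. So were 3 of 8 mesenchymal markers (in 3 to 5 of 8 per library), 3 of 6 neuronal markers, 3 of 5 glial and melanocyte markers and 1 of 7 blood and endothelial markers. Prrx1 and Prrx2 of the mesenchyme, Neurog1 and Neurod1 of the neurons, and Pecam1, Cdh5 and Ptprc of the endothelium and blood were open at no gene end in any library. The part of other cell types in the results was not tested.

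A gene end within 1 kb of a region, whichever gene that region was assigned to, was open in all 5 libraries for 16 of the 36 genes: Wnt7a, Wnt9a, Wnt10a, Wnt16, Tcf7, Tcf7l1, Tcf7l2, Ctnnb1, Apc, Gsk3b, Lrp6, Dkk1, Dkk2, Sfrp1, Sfrp2 and Wif1. For 11 genes no end was open in any library: Wnt1, Wnt3, Wnt3a, Wnt5b, Wnt7b, Wnt8b, Wnt9b, Wnt10b, Wnt11, Axin1 and Sfrp5. The shares were 44.4% and 30.6%, against 54.3% and 34.8% of coding genes. Wnt2, Wnt2b and Lef1 had an open gene end in all 3 wildtype and in neither knockout library (8.33% of the 36, against 1.34% of coding genes), and no gene of the 36 had the reverse (against 1.2%). The first share rests on 3 genes. Of these, Wnt2b had no wildtype-only region assigned to it. The region over its promoter was open in another combination of libraries and did not pass the test described below. The number of genes with an open end was 24, 20 and 19 in wildtype and 19 and 16 in knockout libraries, or 44.4% to 66.7% of the 36, against 59.1% to 61.2% of coding genes per library. In all 3 wildtype libraries and in knockout replicate 2 the strongest peak near any of the genes was that of the kinase gene Gsk3b, at ranks 923, 845, 573 and 927. In knockout replicate 1 it ranked 3205, and the strongest was a peak near Apc, the scaffold of the destruction complex, at 465. That Apc region lay 87333 bp from the gene and ranked 1033, 1116, 2318 and 1153 in the other 4 libraries. The best peak near Wnt1 had ranks of 68561, 110365 and 57780 in wildtype and 54336 and 50766 in knockout libraries, and that near Wnt10b between 60979 and 119521. Both ligand genes thus had peaks, but none among the strongest 50000 of any library.

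At equal numbers of peaks, 11 of the 269 regions (4.09%) were wildtype-only, in all 3 wildtype and no knockout library, against 6.56% of all regions. They lay near 8 genes (22.2% of 36, against 12.8% of coding genes): 3 at Lef1, 2 at Wnt2 and 1 each at Wnt5a, Wnt11, Tcf7l2, Gsk3b, Lrp6 and Dkk2. Knockout-only regions numbered 23 (8.55%, against 7.96% of all regions), near 17 genes (47.2%, against 20.2%): 3 at Wnt5b, 2 each at Wnt4, Axin2, Sfrp1 and Tcf7l1, and 1 each at Wnt3a, Wnt7a, Wnt7b, Wnt8b, Wnt11, Tcf7, Tcf7l2, Ctnnb1, Axin1, Apc, Lrp5 and Dkk3. Wnt11 and Tcf7l2 had both classes. A further 86 regions were shared by all 5 libraries, against 37.2% of all regions. Those of the 36 genes with any region had a median of 7, against 3 over coding genes with any region, and this was not adjusted for in the shares of genes. The wildtype-only count was 19 without wildtype replicate 3, and the knockout-only count 45 without knockout replicate 2.

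Each of the 11 wildtype-only regions was also covered by peaks of knockout replicates 1 and 2 below the strongest 50000 or with summits elsewhere. At 10 of them these ranked below every wildtype peak, and at 1, of Wnt11, above. Among the 23 of the knockout-only class, 6 were also listed, more weakly, for all 3 wildtype libraries and 1, at Wnt8b, was listed for none. The 2 classes cannot be set against each other in this. The knockout lists were longer (208902 and 192810 merged peaks, against 165038, 145099 and 173032), and coverage was asked of 2 knockout but 3 wildtype libraries. The same counts over all regions were not made. No knockout-only region lay within 1 kb of a gene end, whereas 2 of the 11 wildtype-only regions did.

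Ranks were then compared over the 61044 regions with a peak in all 5 full lists, of which 199 lay near these genes. Each rank is given below as a percentile (100 is the strongest), and was tested as its normal score with limma and Benjamini-Hochberg adjustment over all 61044 regions. The difference is knockout minus wildtype, in units of that score, with its standard error. Of the 199, 12 ranked lower in the knockout (6.03% of them, against 8.35% of all tested) and 10 ranked higher (5.03%, against 4.99%) at an adjusted p of 0.05. Together 11.1% passed, against 13.3% of all. An unadjusted p under 0.05 was found for 59 of the 199 and for 21282 of all 61044. The median difference over the 199 was 0.13, against 0.02 over all tested. The 2 groups of libraries did not overlap in 111 of the 199 (55.8%, against 56.2% of all), and in all 22 that passed. When ranked by fold enrichment instead, 9 ranked lower and 18 higher, so 66.7% of the calls were higher against 45.5% by -log10 p (53.0% against 37.4% over all regions). Of the 22 calls, 6 were lost by fold enrichment: those of Lrp5 (adjusted p = 0.443), Wnt2 (0.215), Ctnnb1 (0.0644), Sfrp2 (0.0613), the Dkk2 region before the gene (0.0584) and the first Lef1 start (0.0503). The call of Tcf7l2 was lost with limma's trend (0.0532), like those of Wnt2 and Ctnnb1, and the call of Wnt2b with untransformed percentiles (0.0541).

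The 12 lower regions belonged to 8 genes (Lef1, Dkk2, Dkk1, Sfrp2, Lrp6, Tcf7l2, Wnt2 and Wnt5a) and the 10 higher regions to 8 others (Wnt5b, Wnt2b, Wnt11, Wnt16, Wnt8b, Lrp5, Tcf7l1 and Ctnnb1). The other 20 genes had no region that passed. Across coding genes 11.9% had a lower and 12.1% a higher region. With 2 knockout libraries the calls rest on both, and none of them held without either one. Without wildtype replicate 2, 3 lower regions (1 each at Dkk2, Lef1 and Wnt5a) and 0 higher ones passed. In that run 58 of the 199 had an unadjusted p under 0.05, as did 18853 of all 61044. The higher count was 18 without wildtype replicate 1 and 5 without replicate 3.

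These are differences of rank. In all 10 higher regions every knockout -log10 p and fold enrichment lay above every wildtype value. At equal rank the knockout -log10 p was higher over the whole lists (104 and 50.5 against 19, 10.5 and 8.75 at rank 50000). The order of -log10 p at the higher regions is therefore not separate support for their rank calls. The same counts over all regions were not made. Among the 12 lower regions every wildtype -log10 p lay above every knockout value in 1 (Dkk2), the order was the opposite in 3 (1 each at Dkk1, Dkk2 and Wnt2), and the wildtype fold enrichments all lay above the knockout ones in 6.

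**Figure D2:**
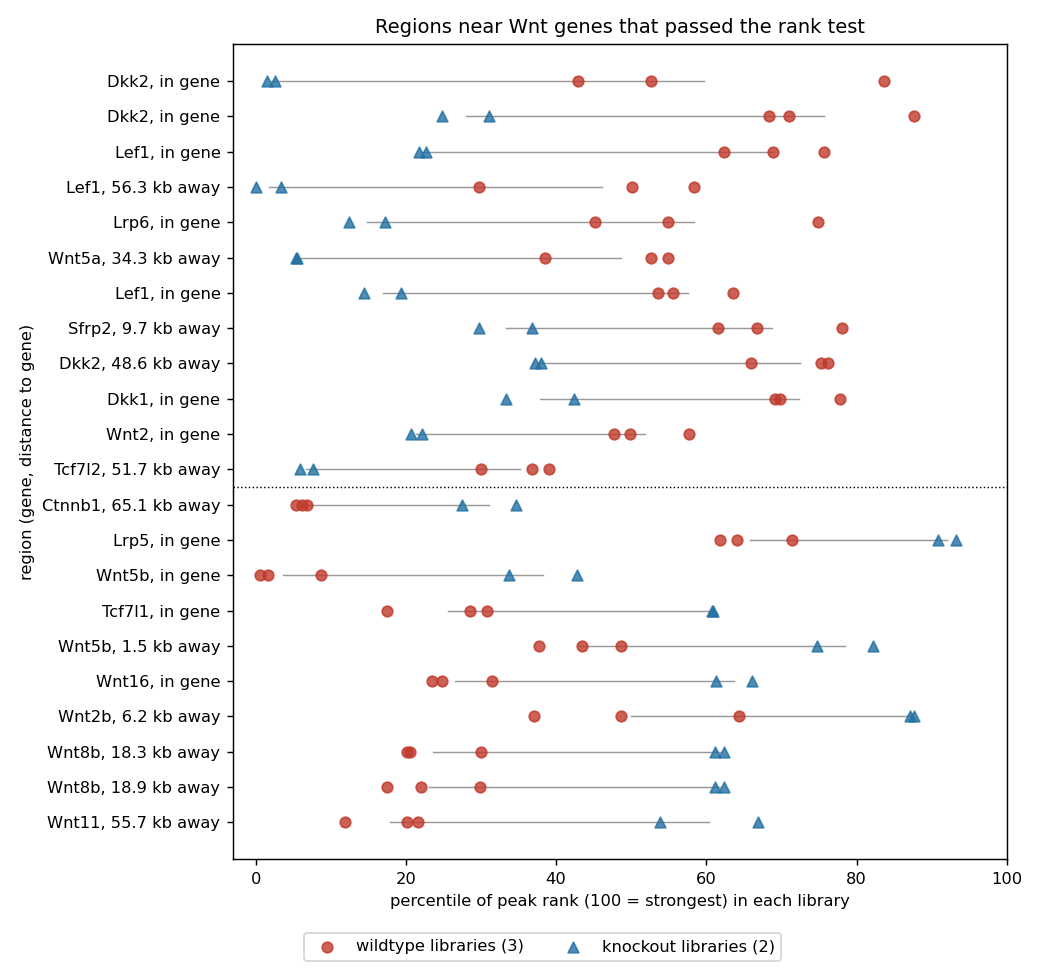
Percentile of peak rank (horizontal axis, 100 is the strongest) in each of the 5 ATAC libraries at the 22 regions that passed the test, with wildtype as circles and knockout as triangles, and a line joining the group means. The 12 regions above the dotted line ranked lower in the knockout and the 10 below it higher, and the groups overlap at none.

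Among the ligands, 69 of 97 regions were tested, and 2 ranked lower and 7 higher in the knockout, with a median difference of 0.18. The lower ones lay at Wnt5a and Wnt2. Wnt5a encodes a ligand best known for signalling without beta-catenin and for planar polarity in the cochlea. Its wildtype-only region (chr14:28561729-28562253, 34281 bp from the gene) stood at percentiles 38.5, 52.6 and 54.9 in wildtype and 5.48 and 5.41 in knockout libraries. The difference was -1.57 ± 0.22 (adjusted p = 0.0184), and it was among the 3 that passed without wildtype replicate 2. The -log10 p there was 28.2, 20.7 and 16.9 in wildtype and 23.1 and 11.5 in knockout libraries. The other 4 Wnt5a regions tested did not pass.

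The Wnt2 region lay over an annotated start (chr6:18030123-18030756), at percentiles 49.9, 47.7 and 57.7 in wildtype and 20.7 and 22.2 in knockout libraries, a difference of -0.84 ± 0.20 (adjusted p = 0.0457). The second wildtype-only region of this ligand gene, at chr6:18031669-18032184, overlapped the same peak of knockout replicate 1 and did not pass (adjusted p = 0.198). The call on the first region was lost with each library left out in turn, and when ranked by fold enrichment (adjusted p = 0.215) or with limma's trend on the mean score (0.0508). There the fold enrichments overlapped between the groups, at 7.82, 5.56 and 5.86 in wildtype and 7.22 and 5.86 in knockout libraries.

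Of the higher ligand regions, 2 belonged to Wnt5b, a close relative of Wnt5a. The shared one (chr6:119430461-119430987, 1544 bp outside the gene) stood at percentiles 43.4, 48.6 and 37.7 in wildtype and 82.2 and 74.7 in knockout libraries (0.97 ± 0.22, adjusted p = 0.0376). The knockout-only one, inside the gene (chr6:119472128-119472629), stood at 0.632, 1.71 and 8.64 against 42.8 and 33.7 (1.69 ± 0.36, adjusted p = 0.0331). In the wildtype this second region was therefore among the weakest of all those tested. A pair of further knockout-only regions inside Wnt5b had no peak in wildtype replicate 2 and was not tested. One ranked 61071 and 100047 in wildtype replicates 1 and 3 and 42210 and 37346 in knockout lists, and the other 61660 and 54987 against 40897 and 34421. All of these wildtype ranks lay beyond 50000, as the class requires.

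Wnt2b, a canonical ligand, had a region 6181 bp from the gene (chr3:104967890-104968425) at percentiles 64.3, 37.1 and 48.7 in wildtype and 87.7 and 87.1 in knockout libraries (1.14 ± 0.26, adjusted p = 0.0396). It was the strongest peak near the gene in the knockout. The best rank near Wnt2b was 21419, 39767 and 31768 in wildtype and 7096 and 7495 in knockout libraries.

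Wnt11, a ligand of the non-canonical branch, had a knockout-only region 55692 bp from the gene (chr7:98778888-98779392). It stood at percentiles 21.6, 20.2 and 11.9 in wildtype and 66.9 and 53.8 in knockout libraries (1.20 ± 0.24, adjusted p = 0.0299). A wildtype-only region of Wnt11 (chr7:98815740-98816546) did not pass (adjusted p = 0.219). It ranked 24812, 37912 and 21765 in the wildtype lists, and the knockout peaks that overlapped it ranked 12819 and 18789, with summits outside its windows. This region is wildtype-only by summit position and not by strength.

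Wnt16 had a higher region over its start (chr6:22287860-22288392, the stretch printed above), at percentiles 24.8, 31.5 and 23.5 in wildtype and 66.1 and 61.3 in knockout libraries (0.98 ± 0.21, adjusted p = 0.0332). It was the only one of the 10 higher regions within 1 kb of a gene end. The same knockout peaks also overlapped a shared region of Wnt16 close by (chr6:22288605-22289116), which stood at percentiles 73.3, 83.8 and 85.5 in wildtype against the same knockout values and did not pass (-0.54 ± 0.23, adjusted p = 0.151). With only peaks whose summit lies in the region, the higher region had no value. The best rank near Wnt16 was 15939, 9722 and 8666 in wildtype and 19995 and 23092 in knockout libraries, the opposite order to the region that passed. A Sox4 peak overlapped it in replicate 2 alone, at -log10 p 6.56.

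Wnt8b, a ligand known chiefly from the developing brain, had 2 regions tested, and both ranked higher. They lay next to each other (chr19:44474112-44474621 and chr19:44474688-44475188), 18851 and 18284 bp from the gene, and shared the same knockout peaks, so they are not independent. The first stood at percentiles 29.9, 17.5 and 22.0 in wildtype and 61.1 and 62.4 in knockout libraries (1.04 ± 0.22, adjusted p = 0.0331). The second stood at 20.5, 20.2 and 30.0 against the same knockout values (1.03 ± 0.21, adjusted p = 0.0321). A knockout-only region lay 5779 bp from Wnt8b and ranked 29649 and 44796 in knockout lists and overlapped no wildtype peak at all.

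The remaining knockout-only ligand regions lacked a peak in at least 1 wildtype list and were not tested. At Wnt3a, 7136 bp from the gene, the ranks were 67441 and 79369 in wildtype replicates 1 and 3 and 30212 and 28663 in knockout lists. At Wnt4, a ligand known from kidney and gonad development, the region inside the gene ranked 61322 and 98667 in wildtype replicates 1 and 3 against 23937 and 32740. The one outside Wnt4 ranked 60931 and 58155 in wildtype replicates 1 and 2 against 31269 and 47974. No wildtype peak at these 3 regions ranked better than 58155. At Wnt7a, known from limb and brain development, the ranks were 61727 and 68561 in wildtype replicates 1 and 3 against 40039 and 43447. At Wnt7b they were 62953 and 81077 against 28006 and 31555. Wnt3, Wnt6, Wnt9a, Wnt9b and Wnt10a had 2, 5, 9, 3 and 3 regions, with none in either class and none that passed.

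Among the secreted antagonists, 39 of 52 regions were tested, and 5 ranked lower and 0 higher in the knockout by limma. This was 12.8% of the 39, while 13.3% of all tested passed in either direction and 8.35% ranked lower. By limma 12 of the 39 had an unadjusted p under 0.05 in either direction, as did 21282 of all 61044 tested. The median difference was 0.02. Dkk2, which binds the co-receptors, gave 3 of the 5, out of 6 tested. The wildtype-only one, inside the gene 35942 bp after its start (chr3:132121234-132121766), stood at percentiles 42.9, 52.6 and 83.6 in wildtype and 2.64 and 1.58 in knockout libraries. The difference was -2.33 ± 0.37 (adjusted p = 0.0206). It was the single lower region at which the -log10 p was also apart in the direction of the rank. The values were 31.5, 20.7 and 44.0 in wildtype and 14.0 and 5.83 in knockout libraries.

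The other Dkk2 regions that passed were not wildtype-only. The one 1586 bp after the start (chr3:132086878-132087391) stood at percentiles 71.0, 68.4 and 87.6 in wildtype and 24.8 and 31.1 in knockout libraries (-1.31 ± 0.27, adjusted p = 0.0324). The one 48612 bp before the gene (chr3:132036127-132036654) stood at 66.0, 75.2 and 76.2 against 38.0 and 37.2 (-0.92 ± 0.21, adjusted p = 0.0398). A shared region 764 bp from the gene did not pass (-0.25 ± 0.20, adjusted p = 0.405), at percentiles 77.8, 81.8 and 84.2 in wildtype and 73.0 and 74.7 in knockout libraries.

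Dkk1, the best-studied inhibitor of Lrp5 and Lrp6, had a shared region over its start (chr19:30549286-30549807), the promoter printed above with 2 TCF/LEF cores and 1 Sox core. It stood at percentiles 69.2, 77.8 and 69.8 in wildtype and 33.3 and 42.4 in knockout libraries (-0.91 ± 0.22, adjusted p = 0.0429). A Sox4 peak overlapped it among the strongest 20000 of replicate 3 alone, at -log10 p 6.78. A weaker peak of replicate 1, below its strongest 20000, also overlapped the region, at -log10 p 5.61. Sfrp2, which binds Wnt ligands, had a lower region 9679 bp from the gene (chr3:83783993-83784544) at 78.0, 66.7 and 61.5 in wildtype and 29.8 and 36.8 in knockout libraries (-0.93 ± 0.24, adjusted p = 0.0487). A Sox4 peak overlapped this one in replicate 2 alone, at -log10 p 7.0. At the Dkk1 region the knockout -log10 p values, 123.3 and 82.0, lay above all wildtype values, the reverse of the rank order.

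Knockout-only antagonist regions numbered 3. The 2 outside Sfrp1, a ligand-binding antagonist, ranked 41556 and 27408, and 36515 and 30371, in knockout lists. The first of them ranked 120977 and 90931 in wildtype replicates 1 and 2 and the second 120979 in replicate 1 alone. The one outside Dkk3, a divergent member of the Dickkopf family, ranked 156494 and 131849 in wildtype replicates 1 and 2 against 44023 and 31803. Sfrp5 had a single region and Wif1 had 7, of which none was in either class or passed.

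The co-receptors had 15 of 23 regions tested, and 1 passed in each direction (13.3%, against 13.3% of all tested). Inside Lrp6 a wildtype-only region (chr6:134521302-134521846) stood at percentiles 45.2, 74.9 and 54.9 in wildtype and 17.2 and 12.4 in knockout libraries (-1.28 ± 0.29, adjusted p = 0.0379). Inside Lrp5 a region (chr19:3641754-3642343) stood at 71.4, 64.1 and 61.8 against 93.2 and 90.8 (1.00 ± 0.21, adjusted p = 0.0329). The Lrp5 region was the strongest of the 22 in the knockout, and its adjusted p was 0.443 when ranked by fold enrichment. A Sox4 peak overlapped it in replicate 3 alone, at -log10 p 7.47. A knockout-only region inside Lrp5 ranked 52335 in wildtype replicate 1, was absent from the other wildtype lists, and ranked 29174 and 42159 in knockout lists. The 2 co-receptor genes thus each held 1 region of opposite class, and the difference between them was not tested.

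No region of the destruction complex passed limma's test, of 22 tested (against 13.3% of all tested). Of the 22, 8 had an unadjusted p under 0.05, as did 21282 of all 61044 tested. Gsk3b, the kinase that phosphorylates beta-catenin, had 1 wildtype-only region (chr16:38243573-38244120) inside the gene, had ranks of 26898, 20587 and 47448 in wildtype and 73577 and 83565 in knockout lists (-1.17 ± 0.33, adjusted p = 0.0631). The other 3 genes had knockout-only regions alone. That of Apc had ranks of 79349, 66791 and 58066 in wildtype and 35892 and 39807 in knockout lists (0.98 ± 0.26, adjusted p = 0.0531).

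Axin2, a negative regulator that is itself a common target of the pathway, had 2 knockout-only regions. The one inside the gene (chr11:108925123-108925628) had ranks of 56981, 84064 and 150378 in wildtype and 39085 and 38211 in knockout lists (1.40 ± 0.41, adjusted p = 0.0694). The one 23282 bp outside ranked 74180 and 94304 in wildtype replicates 1 and 2 against 41490 and 40971. Inside Axin1, the main scaffold of the complex, a region ranked 88699 in wildtype replicate 1 alone against 34387 and 44313. The last 2 of these regions lacked a peak in at least 1 wildtype list and were not tested.

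Among the nuclear effectors, 54 of 62 regions were tested, and 4 ranked lower and 2 higher in the knockout (11.1%, against 13.3% of all tested). Lef1, which binds TCF/LEF sites with beta-catenin, gave 3 of the 4 lower ones, all wildtype-only, out of 9 tested with a median difference of -0.44. Over its first start (chr3:131110031-131110548, the Lef1 stretch printed above) the percentiles were 55.6, 53.5 and 63.6 in wildtype and 19.4 and 14.4 in knockout libraries (-1.16 ± 0.21, adjusted p = 0.0259). A region inside the gene, 106 bp before a further start (chr3:131112173-131112685), stood at 75.7, 68.9 and 62.3 against 21.8 and 22.7 (-1.27 ± 0.22, adjusted p = 0.0232). These were the only 2 wildtype-only regions of Lef1 inside the gene.

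The remaining one lay 56321 bp before the gene (chr3:131053421-131053976), at percentiles 50.1, 29.8 and 58.4 in wildtype and 3.42 and 0.0991 in knockout libraries (-2.35 ± 0.42, adjusted p = 0.0250). This was the lowest difference of the 199 regions. In knockout replicate 2 its peak was close to the weakest kept, at -log10 p 2.80 against 37.7, 12.2 and 18.6 in wildtype and 16.5 in knockout replicate 1. The best rank near Lef1, not at 1 region in every library, was 14503, 18823 and 22112 in wildtype and 28023 and 31908 in knockout libraries. No Sox4 site lay near Lef1.

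**Figure D3:**
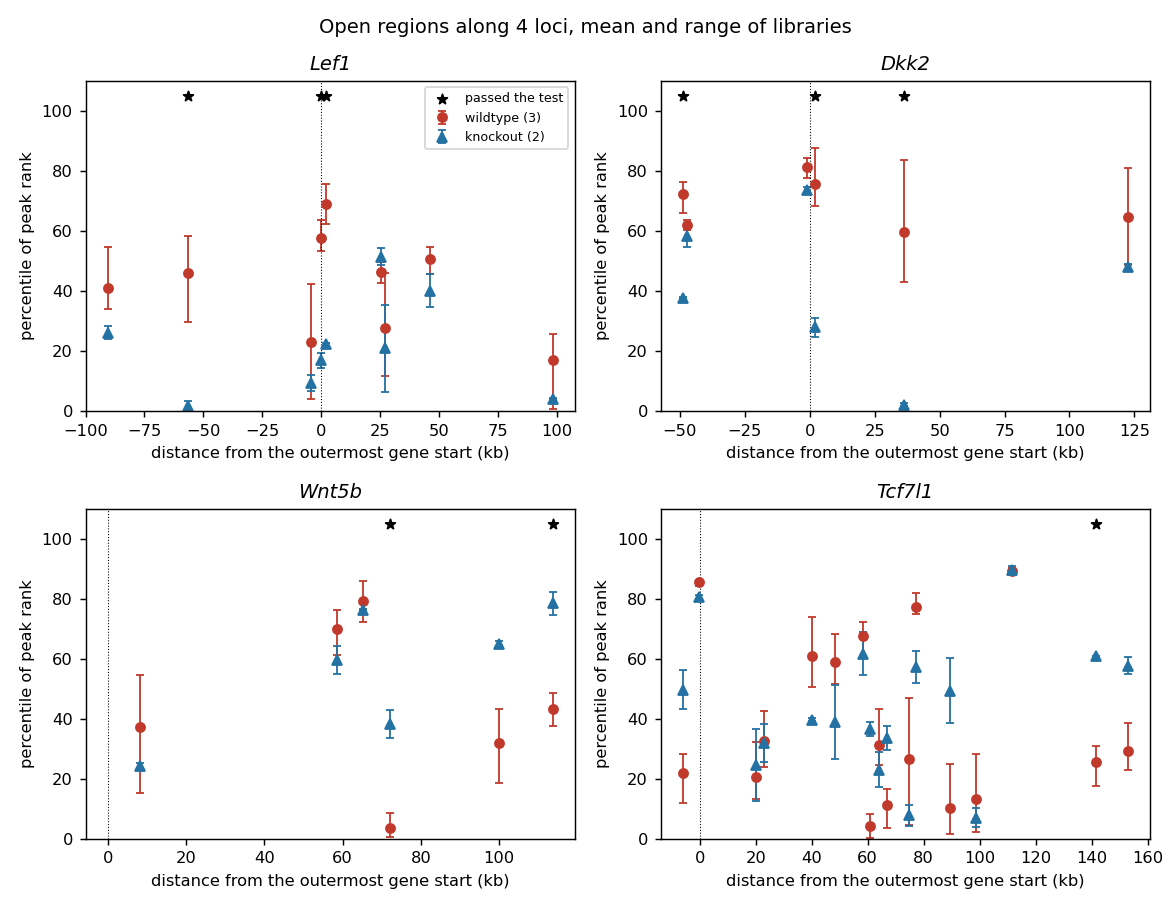
Percentile of peak rank (vertical axis) at each tested region of Lef1, Dkk2, Wnt5b and Tcf7l1 by distance from the outermost gene start (horizontal axis, kb), with the mean and range of the 3 wildtype (circles) and 2 knockout libraries (triangles). Stars mark the 3 regions of Lef1, 3 of Dkk2, 2 of Wnt5b and 1 of Tcf7l1 that passed, and at the other regions of these genes the groups overlap or lie apart without passing the test.

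Tcf7l2, another TCF factor, had a wildtype-only region 51699 bp from the gene (chr19:55689392-55690098) at percentiles 36.8, 39.0 and 30.0 in wildtype and 7.64 and 5.85 in knockout libraries (-1.12 ± 0.21, adjusted p = 0.0263). Its knockout-only region, inside the gene, ranked 99047 in wildtype replicate 2, was absent from the other wildtype lists, and ranked 41756 and 42376 in knockout lists. A further 9 of its 18 regions were shared by all 5 libraries. Of its 16 tested regions 15 did not pass. The groups lay apart in 9, and in 56.2% of all tested regions.

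Tcf7l1, a TCF factor known as a repressor, had 1 higher region inside the gene (chr6:72647232-72647785) at percentiles 30.8, 17.5 and 28.6 in wildtype and 60.9 and 60.7 in knockout libraries (0.94 ± 0.23, adjusted p = 0.0438). Its 2 knockout-only regions did not pass. They ranked 61540, 94797 and 61321 in the wildtype against 48488 and 40716 in knockout lists (adjusted p = 0.101), and 72909, 140334 and 104717 against 40000 and 43633 (adjusted p = 0.0608). Ctnnb1, the gene of beta-catenin, had a higher region 65054 bp from the gene (chr9:120867846-120868346) at 5.42, 6.19 and 6.86 in wildtype and 34.6 and 27.5 in knockout libraries (1.05 ± 0.20, adjusted p = 0.0282). This call was lost by fold enrichment (adjusted p = 0.0644) and with the trend (0.11). Its knockout-only region, inside the gene, ranked 121990 and 83038 in wildtype replicates 1 and 2 against 38751 and 38472. The knockout-only region inside Tcf7, the remaining TCF factor, ranked 85806 and 131853 in the same wildtype replicates against 33395 and 41755.

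**Figure D4:**
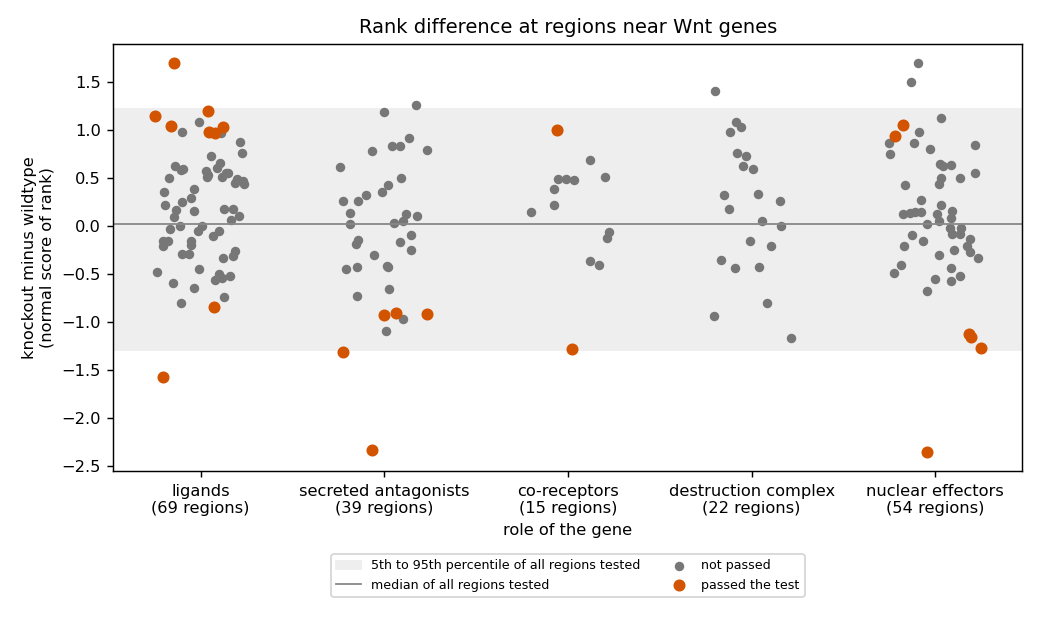
Knockout minus wildtype difference in the normal score of rank (vertical axis) at the 199 tested regions, by the role of the gene, with the 22 that passed in orange and the grey band spanning the 5th to 95th percentile of all 61044 regions tested. The antagonists hold 5 lower and 0 higher regions and the ligands 2 lower and 7 higher, and most regions lie within the band.

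By position, 7 of the 12 lower and 4 of the 10 higher regions lay inside a gene, and 4 in each direction lay more than 10 kb outside. Of the 199 tested regions near these genes 59.3% lay inside a gene, 14.6% within 1 kb of a gene end and 30.2% more than 10 kb outside. Over the 54229 tested regions with a coding gene within 100 kb the shares were 67.9%, 25.9% and 20.6%. The annotation used gives gene bodies and starts, so exons and introns are not told apart.

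Sox4 sites, with windows of the 20000 strongest peaks in at least 2 of 3 replicates, numbered 1708 of 57771 Sox4 windows (2.96%), and 382 (0.661%) were in all 3. Near the 36 genes there were 3, at Gsk3b, Tcf7l1 and Wnt5a (8.33% of the genes, against 6.47% of coding genes). No library of a control antibody was used here, so only agreement between replicates is described. Because many weak Sox4 peaks share 1 value, with 16258, 112 and 7479 peaks tied at the last rank kept, the -log10 p is given beside each site.

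The Gsk3b site (chr16:38088737-38089453) covered the gene start and the promoter printed above. It ranked 65, 21 and 68 in the 3 replicates, at -log10 p 20.9, 30.0 and 21.8 and fold enrichments of 8.80, 8.94 and 5.87. It lay in a shared open region (chr16:38088673-38089204) at percentiles 98.4, 98.6 and 99.0 in wildtype and 94.5 and 98.4 in knockout libraries, which did not pass (-0.35, adjusted p = 0.338). The strongest Sox4 site near these genes was thus at one of their strongest open regions.

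The Tcf7l1 site (chr6:72677140-72677827), inside the gene 111218 bp after its start, was also in all 3 replicates, at -log10 p 12.9, 10.3 and 5.46 and ranks 295, 896 and 9833. The last value was shared by 4270 peaks of replicate 3. Its open region (chr6:72677368-72677900) stood at percentiles 89.2, 88.3 and 90.3 in wildtype and 88.5 and 90.8 in knockout libraries (0.02, adjusted p = 0.95). The Wnt5a site (chr14:28593591-28594169, 66143 bp from the gene) was in replicates 1 and 3, at -log10 p 7.23 and 5.46, and lay in no open region. None of the 3 sites overlapped a region that differed between the genotypes.

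Of 104 Sox4 windows near 32 of the genes, the other 101 were in 1 replicate only. Of these 101, 9 (8.91%) lay in a region open in all 3 wildtype libraries, against 5.91% of all such windows. Of the 104 regions near these genes that were open in all 3 wildtype libraries, 2 held a Sox4 site (1.92%, exact 95% interval 0.234 to 6.77, for counting error only), against 2.96% of all such regions (2.79 to 3.14). The difference was not detectable at these numbers. A peak of any strength in any Sox4 list overlapped 4 of the 12 lower and 3 of the 10 higher regions, and 38 of the 199 tested (19.1%, against 20.4% of all tested).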

How the data were processed

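Cochlear tissue was profiled by ATAC-seq in wildtype (3 libraries) and SoxC double knockout (2 libraries) embryos, and Sox4 binding by CUT&RUN in sorted cells (3 replicates). Groups came from the titles. The authors deposited 1 MACS2 peak list per library on mm10, with the fold enrichment as a ratio over the local background, the significance as -log10 p and -log10 q, and the summit offset. The submitters' processing notes name MACS2 and STAR, as well as deepTools for some libraries and UMI-tools for Sox4, with no versions. The single-cell matrices and a further list of Sox4 replicate 1 were not used in the main results.

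Overlapping peaks of a library were merged and ranked by -log10 p, with ties broken by position. The 50000 strongest autosomal ATAC and 20000 strongest Sox4 peaks became windows of 501 bp, and overlapping or adjoining windows were merged. Regions went to the nearest coding gene within 100 kb (RefSeq). Ranks were tested with limma 3.58.1 (R 4.3.3), two-sided, at an adjusted p of 0.05. With 3 against 2 libraries an exact permutation test could not go below 0.1. On simulated ranks 6000 other regions were shifted by 4 units of the normal score. There limma recovered 49% of 200 regions shifted by 1 unit and 83% of those shifted by 2. False calls made up 5.03% and 4.98% of all calls. With no other region changed it recovered 0% at either shift. In the data the 5th and 95th percentiles of the difference were -1.29 and 1.22, so these shares describe the simulated setting and not these data. Shares carry exact binomial intervals (Clopper-Pearson). Alternatives and their effect are in the closing section. The 36 genes, their roles and the other gene lists were chosen with earlier results of these data known. All 36 are named, those with a class, a call or a Sox4 site in detail. An epithelial marker of the list is not reported here.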

Additional observations from a re-analysis of the deposited data

How the results depend on the processing

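All 223 values of the 22 passed regions recomputed under alternatives kept their direction. Of these 127 passed and 96 did not. The setting that requires the summit in the region gave no value for 3 of the regions (Wnt2, Wnt16 and 1 of Wnt8b), and the setting limited to the strongest peaks none for 16. The wildtype-only count of 11 became 6 with the 25000 strongest peaks and 7 within 10 kb, and ranged from 13 to 19 with 1 library left out. The knockout-only count of 23 became 43 with the 100000 strongest peaks and ranged from 23 to 45 with 1 library left out. Of the rank calls, 7 were lower when only regions among the strongest peaks of all 5 libraries were tested (86 near these genes), 18 were higher when ranked by fold enrichment, and 24 were higher with limma's trend on the mean score. The trend passed 23.5% of all regions, against 13.3%. With 1 library left out the lower calls ranged from 0 to 11 and the higher calls from 0 to 18. With the replicate number as a block, 9 were lower and 7 higher, among them regions that did not pass in the main run. The block lost the limma calls of Dkk1, Lrp5, Lrp6, Sfrp2, Tcf7l1, Wnt16, Wnt2 and Wnt2b (adjusted p from 0.0541 to 0.0871). It also lost those of the Dkk2 region before the gene, the shared Wnt5b region and the first Wnt8b region (0.0724, 0.0708 and 0.0564). Same-numbered libraries correlated at 0.0783 and 0.044 in their deviations, so the numbers were not taken as pairing. Sox4 sites near these genes numbered 18 with all deposited peaks, or 0.152% of all sites, against 0.176% in the main run. They numbered 5 with the further list of replicate 1, and ranged from 2 to 3 with 1 replicate left out. The Wnt5a site was not found with the further list, without replicate 1 or 3, or within 10 kb. Keeping only peaks above the value tied at the last rank, or all at it, gave 3 sites in both cases. These tie settings, and 1 for the classes that changed neither count, were chosen after seeing the data. The cause of these changes was not tested, except that fewer regions were tested in the setting limited to the strongest peaks. Read depth is unknown, and 2 knockout libraries limit every call.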

Other observations

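Of 69 other genes of Wnt secretion, reception and transduction, 67 were matched on the autosomes, with 406 open regions. Of the 347 tested, 21 ranked lower and 24 higher in the knockout by limma (13%, against 13.3% of all regions). Lower regions lay near 14 of the 67 genes and higher ones near 20, with 5 genes in both counts, against 11.9% and 12.1% of coding genes. The number of regions per gene was not adjusted for. Inside Lgr5, the gene of an R-spondin receptor and a marker of cochlear progenitors, a region (chr10:115493345-115493884) stood at percentiles 97.1, 97.8 and 98.3 in wildtype and 71.0 and 71.8 in knockout libraries (-1.45 ± 0.20, adjusted p = 0.0178). It overlapped a Sox4 site (chr10:115493185-115493784) at -log10 p 5.61, 38.3 and 10.5 in the 3 replicates, of which the first lay below the strongest 20000 peaks. A region inside Lgr4, its relative, stood at 82.4, 88.5 and 92.7 against 34.3 and 35.5 (-1.58 ± 0.23, adjusted p = 0.0189). One inside Daam1, a formin of the planar polarity branch, stood at 77.1, 73.8 and 85.0 against 16.4 and 19.8 (-1.72 ± 0.22, adjusted p = 0.0165).

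Frizzled receptors, the family left out of the 36 genes, gave 2 of the 8 genes named here, which are those with the smallest adjusted p. A region inside Fzd1 stood at percentiles 16.5, 39.7 and 38.8 in wildtype and 93.4 and 95.4 in knockout libraries (2.1 ± 0.28, adjusted p = 0.0172). A knockout-only region 17900 bp from Fzd6 stood at 5.36, 3.80 and 4.14 against 49.6 and 43.6 (1.62 ± 0.20, adjusted p = 0.0163), while another region of Fzd6, inside the gene, ranked lower (-0.95 ± 0.21, adjusted p = 0.0376). Apc2, a relative of Apc, had a higher region inside the gene (1.66 ± 0.22, adjusted p = 0.0166), and Kremen2, a receptor of Dickkopf proteins, had one 2889 bp outside it (1.32 ± 0.20, adjusted p = 0.0198). Tle1, a co-repressor that binds TCF factors, had regions in both directions, among them a lower one 59678 bp from the gene (-1.84 ± 0.26, adjusted p = 0.0182). A total of 11 Sox4 sites lay near 10 of the 67 genes and 3 sites near 3 of the 36, while 6.47% of coding genes had a site. The difference between these lists was not tested.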
